A study of Mus musculus with 6 samples.

Results

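The immediate early and heat shock genes described here are 36 named genes, 28 immediate early and 8 heat shock, in lacrimal gland RNA of mice with and without aquaporin 5. They were taken by symbol from a table of 22564 protein-coding entries, and each of the 36 was found there once. Ribosomal RNA was removed from total RNA, and 3 libraries of AQP5+/+ mice and 3 of AQP5-/- mice were sequenced, all from C57BL/6 animals aged 6 months with no treatment named. The AQP5-/- animals were made by CRISPR/Cas9 in fertilized eggs delivered by electric transfer, and how many founder lines they came from was not stated. The profiles are described as those of 3 mice of each genotype, and the sex of the mice was not stated.

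Immediate early genes are transcribed within minutes of a stimulus such as a hormone, a growth factor, nerve activity or injury, from promoters that need no newly made protein, and their short-lived mRNAs then fall again. Many of them encode transcription factors, and others encode phosphatases and RNA-binding proteins that shut the same signal down. Heat shock genes encode chaperones that hold or refold proteins, and heat shock factor 1 switches on the inducible ones. In the lacrimal gland, nerves and hormones drive tear secretion through receptors of acinar cells that are coupled to such signalling pathways.

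The stretches just before the start sites of some of these genes are printed to show the response elements matched there. They come from RefSeq windows on GRCm38.p6, the assembly also known as mm10, in which 30 of the 36 members were matched, and only bases before the start were searched and are shown. Capitals mark the short cAMP response element TGACG on either strand, the full element TGACGTCA that contains it, and the TATA box TATAAA.
Fos (chr12:85473760-85473889, + strand): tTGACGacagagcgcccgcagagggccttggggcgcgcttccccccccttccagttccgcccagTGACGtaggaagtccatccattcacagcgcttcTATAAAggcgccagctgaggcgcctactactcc
Junb (chr8:84978749-84978878, - strand): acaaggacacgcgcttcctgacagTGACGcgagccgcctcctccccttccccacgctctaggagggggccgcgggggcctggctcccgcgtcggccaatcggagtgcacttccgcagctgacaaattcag
Atf3 (chr1:191183334-191183463, - strand): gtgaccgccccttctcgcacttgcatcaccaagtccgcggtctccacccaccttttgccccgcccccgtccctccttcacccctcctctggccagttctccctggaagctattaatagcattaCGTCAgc
Gadd45b (chr10:80929961-80930090, + strand): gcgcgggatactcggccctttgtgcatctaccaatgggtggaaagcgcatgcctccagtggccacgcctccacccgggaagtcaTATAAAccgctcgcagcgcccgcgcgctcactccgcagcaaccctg
Gadd45g (chr13:51846545-51846674, + strand): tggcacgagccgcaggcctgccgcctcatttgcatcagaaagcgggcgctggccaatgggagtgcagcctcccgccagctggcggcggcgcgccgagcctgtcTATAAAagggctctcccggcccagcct
Dusp1 (chr17:26508473-26508622, - strand): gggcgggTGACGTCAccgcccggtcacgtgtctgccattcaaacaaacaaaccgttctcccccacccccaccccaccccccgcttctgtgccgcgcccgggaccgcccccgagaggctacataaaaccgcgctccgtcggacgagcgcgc
In the 250 bases before the start, 13 of the 22 immediate early members with a window held TGACG on either strand, as did 17.8% of all 32851 windows. The full TGACGTCA was found for Btg2 and Dusp1 (1.55% of all windows) and TATAAA for Cyr61, Fos, Gadd45b, Gadd45g and Nr4a2 (12.4%). A serum response element, in the form of the CArG box, was matched for Egr2 and Zfp36 (1.47%), and the early growth response site GCGNGGGCG for 10 immediate early members and for Hspb8 (4.7%). The AP-1 site TGANTCA was matched for no member (6.75% of all windows). All were searched on both strands, and the matches describe letters in a fixed window. Here and below, a member was counted when any of its windows held the motif, while the shares are of single windows. The 30 members had 37 windows, so some had more than 1 chance of a match.

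The windows were searched for the heat shock element of 3 units, in which GAA and its reverse TTC alternate with 2 free bases between them, on both strands. It was found only in the stretch shared by Hspe1 and Hspd1, genes that lie head to head and overlap in the annotation, and it was present in 0.466% of all windows. A pair of units, GAANNTTC or TTCNNGAA, was searched for after the values had been seen, and was found for 6 of the 8 heat shock members, 4 of 22 immediate early members and 12.8% of all windows. Capitals mark the units, and the stretches of Hspa1a and Hspa1b are shown because these copies are so alike.
Hspa1a (chr17:34972157-34972286, - strand): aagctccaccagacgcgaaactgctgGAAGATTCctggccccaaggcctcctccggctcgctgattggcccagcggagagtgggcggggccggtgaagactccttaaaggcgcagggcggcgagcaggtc
Hspa1b (chr17:34959239-34959368, - strand): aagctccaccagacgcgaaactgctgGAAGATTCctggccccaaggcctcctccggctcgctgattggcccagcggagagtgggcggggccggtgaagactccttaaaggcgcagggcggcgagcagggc
Hspe1 (chr1:55088053-55088082, + strand): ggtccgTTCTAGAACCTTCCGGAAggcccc
Over 250 bases the stretches before Hspa1a and Hspa1b differed at 3 positions (98.8% identical). Their transcripts are close copies too, so that the division of reads between these genes is uncertain, and likewise for the overlapping Hspe1 and Hspd1.

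The values are FPKM, fragments scaled to transcript length and to the mapped depth of the library, which allow levels of different genes to be compared. Each library held between 11244579 and 13723134 estimated fragments. Aqp5 itself, the targeted gene, stood at 154, 89.0 and 142 FPKM in AQP5+/+ replicates 1, 2 and 3 and at 0.378, 0.177 and 0.170 in AQP5-/- replicates 1, 2 and 3. As markers of the tissue, the 9 lacrimal acinar genes in the table summed to between 64300 and 106000 FPKM, mostly from Scgb2b24 and Pip. Scgb2b24 ranged from 32600 to 79100 FPKM and Pip from 22200 to 29300. Bhlha15, Car6, Lcn11 and Ltf ranged from 126 to 4720, while Lyz1 stood at 0.52 to 4.84 and Obp1a at 0 throughout. Pnliprp1 stood at 626 and 334 in AQP5+/+ replicates 1 and 3 and at 0.21 to 0.518 in the other libraries. Some libraries stood apart in ways that the genotype does not name. The 4 Y-linked genes summed to 0.320 and 0.185 FPKM in AQP5+/+ replicates 1 and 3 but to 33 in AQP5+/+ replicate 2 and to between 49.7 and 58.0 in AQP5-/- libraries. Genotype and Y-linked transcripts can therefore be separated only through AQP5+/+ replicate 2. Over genes with a mean of at least 0.5 FPKM, its correlation on the log2 scale was 0.9525 to 0.9609 with the AQP5-/- libraries. With AQP5+/+ replicates 1 and 3 it was 0.9172 and 0.913, while those correlated at 0.953 with each other. This split of the AQP5+/+ group limits every comparison of the genotypes below. Genes of salivary glands, a list of 13 put together after their values had been seen, summed to 19800 FPKM in AQP5-/- replicate 1, to 1790 in AQP5+/+ replicate 2 and to between 9.55 and 28.5 in the others. Among them Bpifa2, a parotid secretory protein, reached 11900 FPKM and Amy1, salivary amylase, 2350 in AQP5-/- replicate 1, against 1160 and 119 in AQP5+/+ replicate 2, while Muc19 and Smgc were listed at 0 in all 6 libraries. In whole glands, fewer cells of a type and less RNA per cell cannot be told apart.

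As a set, the immediate early genes were high in 1 library. The 28 of them held 0.417% of the estimated fragments of AQP5-/- replicate 1, against 0.134%, 0.107% and 0.152% in AQP5+/+ replicates 1, 2 and 3 and 0.0998% and 0.116% in AQP5-/- replicates 2 and 3. The 8 heat shock genes did not share this: they held 0.0264% of AQP5-/- replicate 1, the lowest of the 6 shares, between 0.0289% and 0.0313% in the AQP5+/+ libraries, 0.0433% in AQP5-/- replicate 2 and 0.0336% in AQP5-/- replicate 3. The library with the highest immediate early share also had the highest sum of the 13 salivary gland genes, 19800 FPKM. AQP5+/+ replicate 2, second in that sum at 1790 FPKM, had an immediate early share below those of the other AQP5+/+ libraries. The 10 genes with the most fragments held 16.3% of AQP5+/+ replicate 1 and 32.4% to 36.4% of each other library. The shares were not adjusted for this. The part that salivary tissue has in these levels was not tested.

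**Figure D1:**
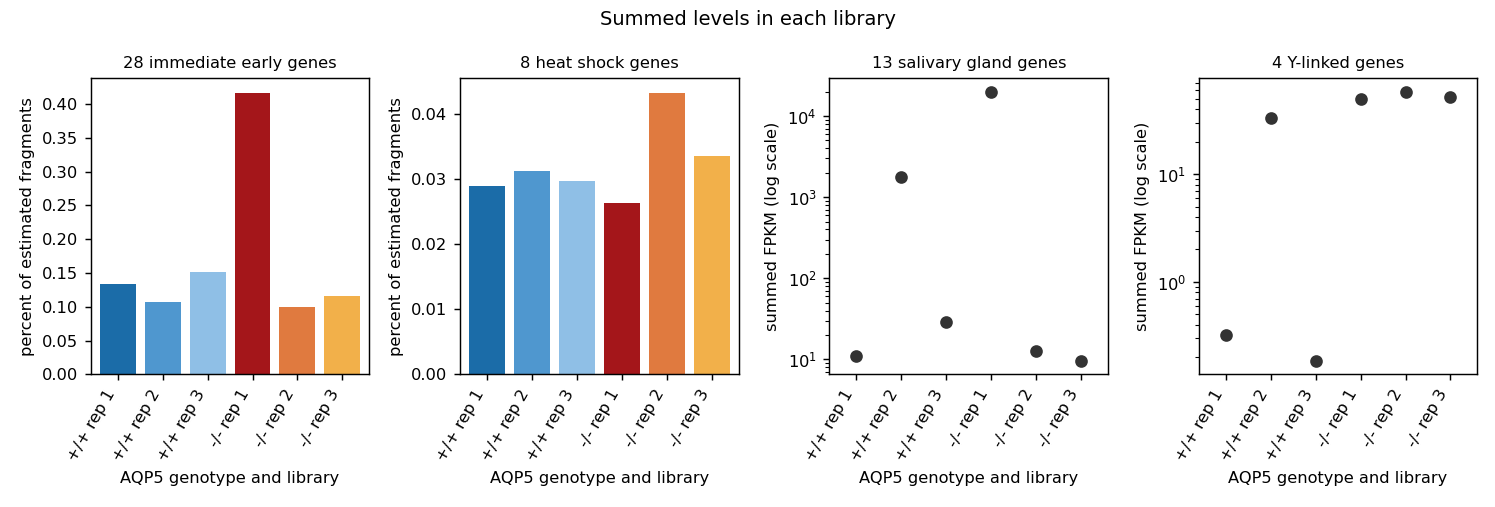
Summed levels in each of the 6 libraries: the share of estimated fragments held by the 28 immediate early genes and by the 8 heat shock genes (bars, in percent), and the summed FPKM of 13 salivary gland genes and 4 Y-linked genes (points, log scale). AQP5-/- replicate 1 has an immediate early share of 0.417%, above 0.0998% to 0.152% elsewhere, and the highest salivary sum, while the heat shock share is highest in AQP5-/- replicate 2.

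Genes with a mean of at least 0.5 FPKM were compared by limma on log2(FPKM + 0.5), a scale that understates the change of low genes. This left 25 of the 28 immediate early members, all 8 heat shock members and 11772 genes in all. A gene was called when it differed 2-fold or more with an unadjusted p under 0.05. Of the immediate early members 2 were called higher in AQP5-/-, Fos and Ier3, where 1.16% of all genes were, and 0 were called lower, where 0.883% of all genes were. Of the heat shock members 1, Hspb8, was called higher and 0 lower. With limma 0 of the 33 members had an adjusted p under 0.05 (0.017% of all genes, 2 genes, did), and their smallest adjusted p was 0.431. Without AQP5+/+ replicate 2, limma gave an adjusted p of 0.0119 for Hspb8 and of 0.04 for Gadd45b, in a fit that put 7.92% of all genes under 0.05. With array quality weights, lowest for AQP5+/+ replicate 2 at 0.325, both had an adjusted p of 0.0439 by limma, and 4.38% of all genes were under 0.05. At an unadjusted p under 0.05 by limma, 5 immediate early members (Fos, Ier3, Klf4, Gadd45b and Gadd45g) and Hspb8 were higher (3.27% of all genes) and 0 members were lower (8.12% of all genes). After centring each library on its median, 777 of 11772 genes were higher at this limit and 600 were lower. Of the members, 5 immediate early and 3 heat shock ones were then higher and 0 lower. EdgeR on estimated fragments also left 0 members under an adjusted p of 0.05, while DESeq2 left 2, Klf4 with an adjusted p of 0.0335 and Hspb8 with 0.00542, among 1.27% of all genes.

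The median log2 fold change was 0.69 over the 25 immediate early members and 0.23 over the 8 heat shock members, and -0.12 over all genes. After centring each library on its median these were 0.83, 0.37 and 0.01. Of the immediate early members 18 had a log2 fold change above 0 and 7 below, and of the heat shock members 7 had one above 0. Of all genes 33% were above 0. After centring, 6145 of 11772 genes were above 0, and so were 18 immediate early and 7 heat shock members. In 6 immediate early members and in Hspb8 every AQP5-/- library was above every AQP5+/+ library (3.86% of all genes), and in 0 members was every AQP5-/- library below (11.1% of all genes).

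**Figure D2:**
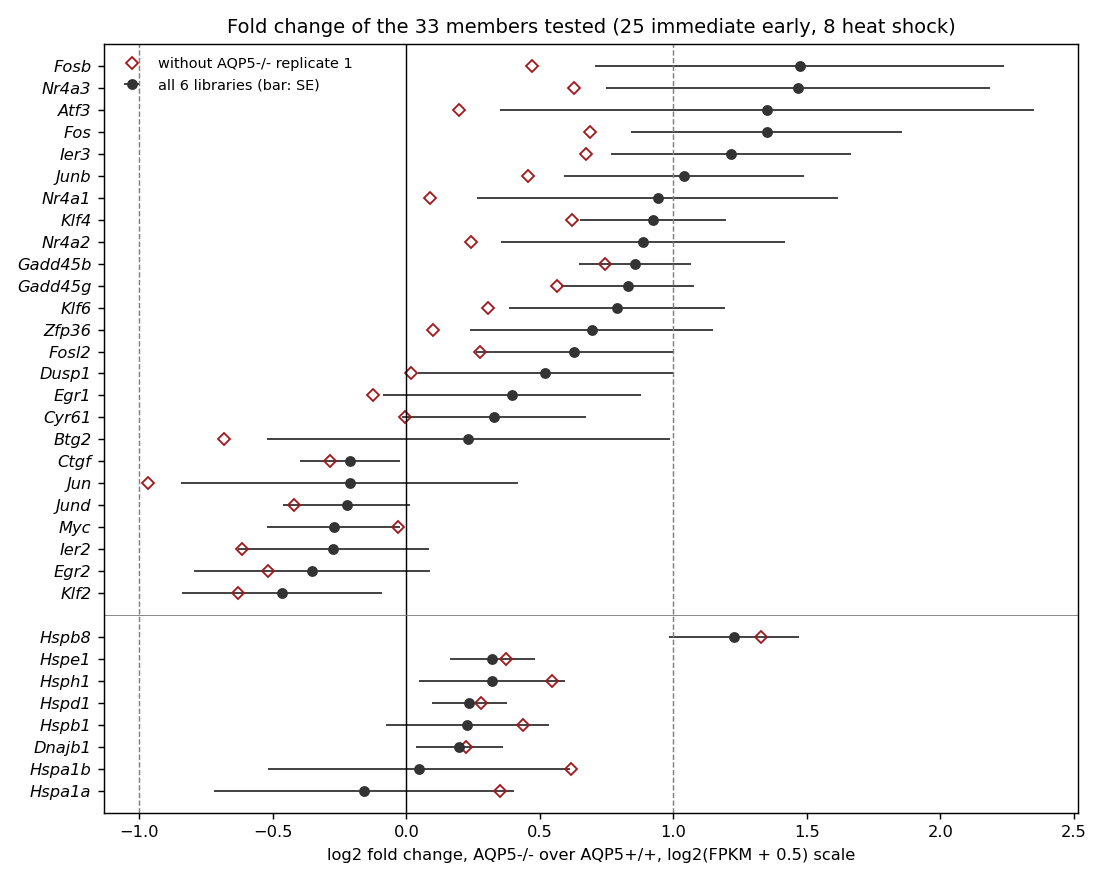
Log2 fold change of AQP5-/- over AQP5+/+ on the log2(FPKM + 0.5) scale for the 33 members tested, with all 6 libraries (filled points, bars are the SE) and without AQP5-/- replicate 1 (open diamonds), dashed lines marking a fold change of 2. The median over the immediate early members is 0.69 with all libraries and 0.10 without that one, and Hspb8 is the only member past the dashed line in the second case.

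AQP5-/- replicate 1 was the highest library for 19 of the 25 immediate early members (76.0%), against 6.33% of all genes, and AQP5+/+ replicate 1 was the lowest for 13 of them (52.0%), against 9.48%. In 11 members, Atf3, Btg2, Fos, Fosb, Ier3, Junb, Klf6, Nr4a1, Nr4a2, Nr4a3 and Zfp36, AQP5-/- replicate 1 was at least 2-fold above every other library. Over all genes tested this held for 61 (0.518%), of which 3 more were on the list of other immediate early genes and 10 on the salivary gland list. The median deviation of the 25 members from their own means was 1.27 on the log2 scale in AQP5-/- replicate 1, -0.113 and -0.0871 in AQP5-/- replicates 2 and 3, and -0.637, -0.337 and -0.162 in AQP5+/+ replicates 1, 2 and 3. The lowest median deviation was that of AQP5+/+ replicate 1.

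Without AQP5-/- replicate 1, limma called 0 immediate early members higher (1.21% of all genes), and the median over them was 0.10. Of these 25, 5 then had an unadjusted p under 0.05 with a higher level in AQP5-/- (Fos, Ier3, Klf4, Gadd45b and Gadd45g), where 3.73% of all genes did, and 1, Jun, with a lower one, where 3.47% did. In the remaining AQP5-/- libraries 6 members were above every AQP5+/+ library, Fos, Gadd45b, Gadd45g, Ier3, Junb and Klf4, where 9.93% of all genes were, and 0 members were below every AQP5+/+ library, where 14.4% of all genes were. For 7 members, Atf3, Btg2, Dusp1, Egr1, Fosl2, Myc and Nr4a1, both of these libraries lay within the AQP5+/+ range (28% of the members and 30.2% of all genes). Other libraries moved the count of calls too: limma called 0 higher when AQP5+/+ replicate 1 was left out (0.366% of all genes) and 1 when AQP5+/+ replicate 3 was (0.699%). It called 8 higher when AQP5-/- replicate 2 was left out (0.698% of all genes) and 5 when AQP5-/- replicate 3 was (0.891%). EdgeR on estimated fragments called 8 (Fos, Fosb, Junb, Ier3, Klf4, Gadd45b, Gadd45g and Nr4a3), with 1.22% of all genes called higher, and 1 without AQP5-/- replicate 1 (Gadd45b), with 1.69%.

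**Figure D3:**
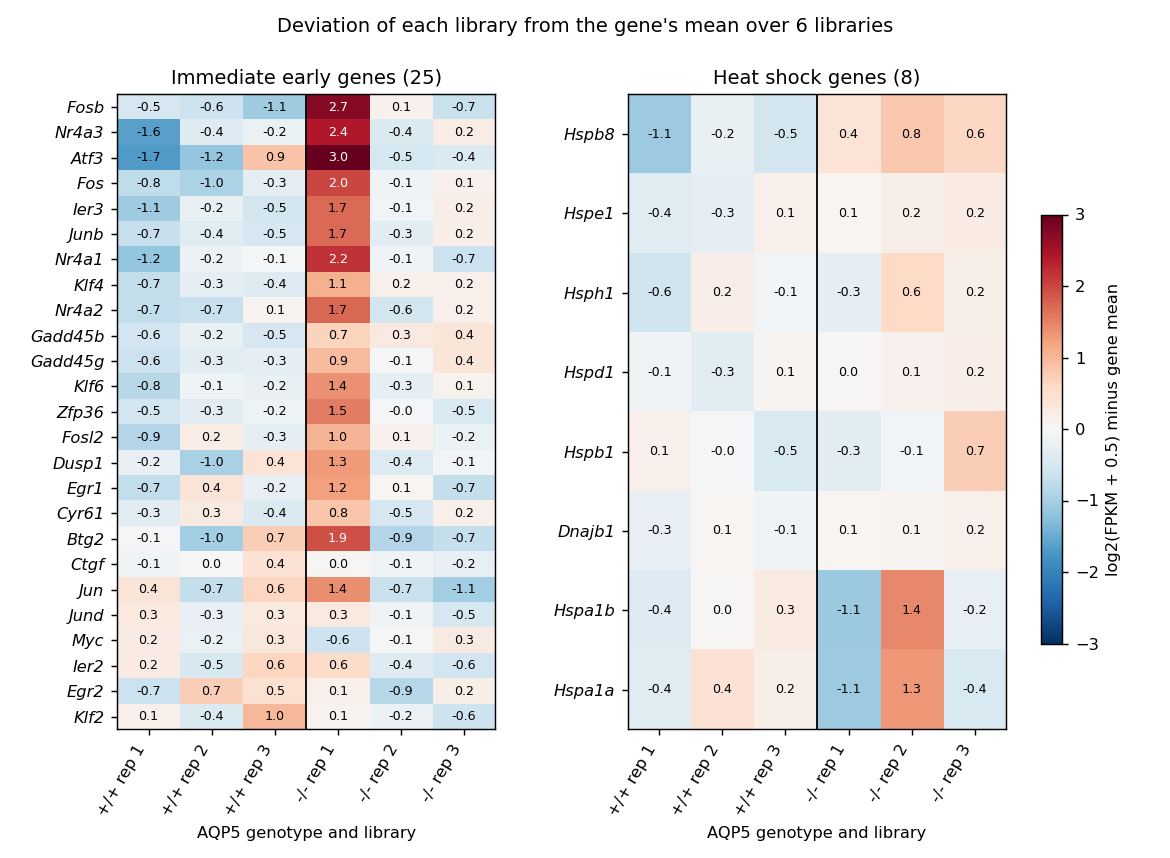
Deviation of each library from the gene's own mean over 6 libraries, on the log2(FPKM + 0.5) scale, for the 25 immediate early and 8 heat shock members tested, ordered by log2 fold change. The column of AQP5-/- replicate 1 is the highest for 19 of the 25 immediate early members and for 0 of the 8 heat shock members.

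The Fos and Jun families form the dimeric transcription factor AP-1. Fos (chr12:85473890-85477274), its classical inducible subunit, stood at 18.5, 16.1 and 25.6 FPKM in AQP5+/+ replicates 1, 2 and 3 and at 128, 29.5 and 34.8 in AQP5-/- replicates 1, 2 and 3. All AQP5-/- libraries were above all AQP5+/+ libraries, and the highest was 3.68 times the next. The log2 fold change was 1.35 (SE 0.507), with an adjusted p = 0.431 by limma. Without AQP5-/- replicate 1 it was 0.69, and the call of Fos was lost there and when either AQP5+/+ replicate 1 or AQP5+/+ replicate 2 was left out (1.31 and 1.21). Behind these levels were 561, 533 and 648 estimated fragments in AQP5+/+ and 4213, 703 and 1217 in AQP5-/- libraries.

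Junb, a partner of Fos that also restrains Jun, stood at 15.3, 19.4 and 17.5 FPKM in AQP5+/+ and at 82.0, 19.8 and 28.9 in AQP5-/- replicates 1, 2 and 3. The genotypes did not overlap, but AQP5-/- replicate 2 (19.8) was next to AQP5+/+ replicate 2 (19.4). Its log2 fold change was 1.04 (SE 0.451), and it missed the call because its unadjusted p by limma was just above 0.05 (adjusted p 0.432). Fosb, a close relative of Fos, had the widest gap between the highest and the next library among the tested members, with 1.26, 1.13 and 0.691 FPKM in AQP5+/+ and 16.2, 2.25 and 1.08 in AQP5-/- libraries, with AQP5-/- replicate 1 at 7.22 times the next. Its groups overlapped, and its log2 fold change of 1.47 had an SE of 0.765.

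Jun followed another order. It stood at 40.9, 18.7 and 48.7 FPKM in AQP5+/+ and at 82.7, 19.3 and 14.7 in AQP5-/- replicates 1, 2 and 3, so that AQP5-/- replicate 1 and AQP5+/+ replicates 1 and 3 were the high libraries. Its log2 fold change was -0.21 (SE 0.630) with all libraries and -0.97 without AQP5-/- replicate 1. The same 3 libraries were the highest for 5 of the 25 immediate early members (20%), Jun included, against 6.88% of all genes. This order was taken from the values of Jun, so the count is no separate support for it. For 8 of the 25 (32.0%) AQP5+/+ replicates 1 and 3 were both above AQP5+/+ replicate 2, against 62.2% of all genes. AQP5+/+ replicates 1 and 3 are also the libraries without Y-linked transcripts, and the part of that difference in the order was not tested. Jund, the member of the family that most cells make without a stimulus, ranged from 17.1 to 25.3 FPKM in AQP5+/+ and from 14.2 to 25 in AQP5-/-. Fosl2, a relative of Fos, ranged from 3.09 to 7.11 and from 5.20 to 12.8. Fosl1 was below the filter, with 0.122 FPKM in 1 library of each genotype (3 and 4 estimated fragments) and 0 in the others.

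Atf3, a stress-induced factor that can pair with Jun proteins, was high in AQP5-/- replicate 1, while its genotypes overlapped. Its levels were 3.44, 5.15 and 22.7 FPKM in AQP5+/+ and 101, 8.36 and 9.05 in AQP5-/- libraries. The log2 fold change of 1.35 had an SE of 1 and fell to 0.20 without AQP5-/- replicate 1. By edgeR on estimated fragments without that library it was -0.38.

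The zinc finger factors of the Egr family did not separate the genotypes. Egr1, which many growth factors induce, ranged from 3.59 to 8.46 FPKM in AQP5+/+ and from 3.70 to 15.6 in AQP5-/-, with the highest value in AQP5-/- replicate 1. Egr2 ranged from 0.304 to 1.60 and from 0.195 to 0.939, and the 2 deposited measures ranked its libraries differently: FPKM was highest in AQP5+/+ replicate 2, while the estimated fragments, 17, 28 and 20 in AQP5+/+ and 49, 9 and 28 in AQP5-/-, were highest in AQP5-/- replicate 1. Egr3 was below the filter, from 0 to 0.453 FPKM over the 6 libraries.

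The Nr4a genes encode orphan nuclear receptors that act as immediate early factors. All 3 were at least 3-fold higher in AQP5-/- replicate 1 than in any other library, which held for 0.348% of all genes. Nr4a1 stood at 9.48, 19.2 and 20.8 FPKM in AQP5+/+ and at 100, 20.1 and 13.7 in AQP5-/- replicates 1, 2 and 3. Nr4a2 stood at 8.38, 8.79 and 15.1 in AQP5+/+ and at 48.7, 9.52 and 16.0 in AQP5-/-. Nr4a3 stood at 0.136, 1 and 1.21 in AQP5+/+ and at 9.93, 0.944 and 1.8 in AQP5-/-. In each of the 3 genes the genotypes overlapped, and their log2 fold changes of 0.94, 0.89 and 1.47 became 0.09, 0.24 and 0.63 without AQP5-/- replicate 1. Over the 6 members of the Fos and Jun families that were tested, the ratio of AQP5-/- replicate 1 to the highest other library had a median of 2.32, and over the Nr4a genes 4.82.

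**Figure D4:**
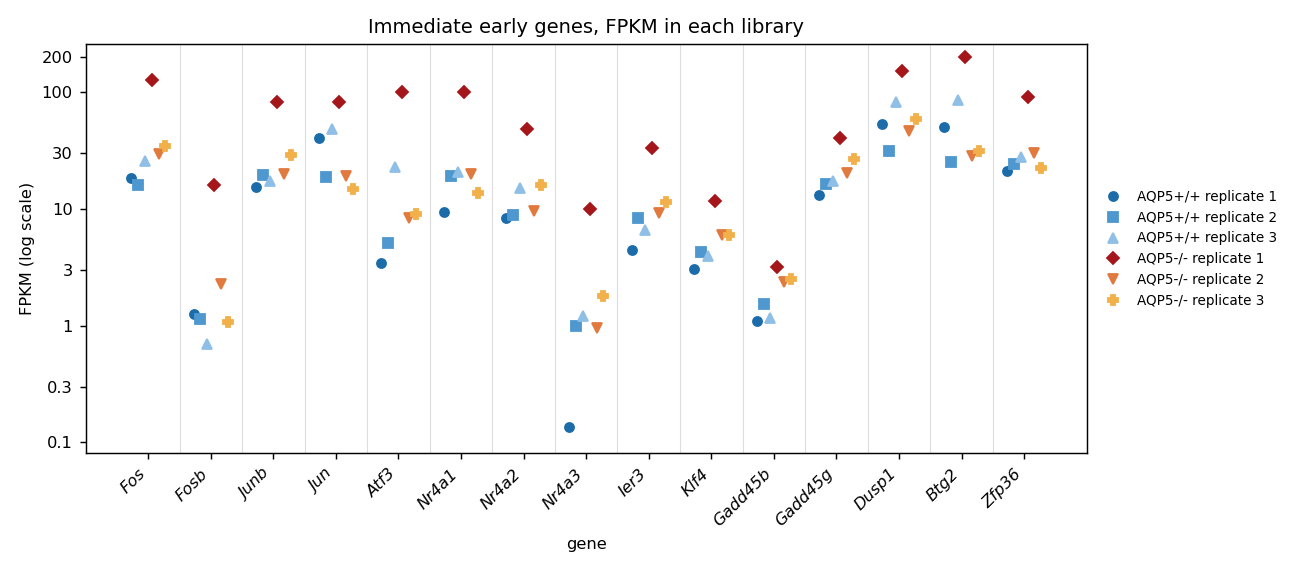
FPKM (log scale) of 15 immediate early genes in each library, AQP5+/+ in blue and AQP5-/- in red to yellow. The genes drawn were chosen from the 19 members highest in AQP5-/- replicate 1, which stands at 7.22 times the next library for Fosb and 1.28 times for Gadd45b, and the 6 other tested members (Jund, Ier2, Egr2, Myc, Klf2 and Ctgf) peaked in AQP5+/+ libraries.

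The Krüppel-like factors divided. Klf4, a factor of epithelial differentiation, stood at 3.07, 4.29 and 3.95 FPKM in AQP5+/+ and at 11.8, 6.00 and 6.02 in AQP5-/- libraries. No AQP5-/- library overlapped AQP5+/+, and leaving out AQP5-/- replicate 1 changed its log2 fold change from 0.92 (SE 0.273) to 0.62. By limma its unadjusted p was 0.00994 and its adjusted p was 0.431. Its fold change was short of 2 on the log2(FPKM + 0.5) scale and past 2 by edgeR (log2 fold change 1.23). Its mean FPKM was 3.77 in AQP5+/+ and 7.93 in AQP5-/-. Klf6, a factor of injury responses, ranged from 9.63 to 15.9 in AQP5+/+ and from 14.2 to 45.8 in AQP5-/-. Klf2, best known from endothelium, ranged from 1.11 to 3.80 and from 0.919 to 1.83, with a log2 fold change of -0.47. Endothelial markers had a median log2 fold change of -0.43, against -0.12 over all genes. Of the 9 tested, 8 were below 0, as were 7883 of 11772 genes, and Vwf was at 0.71. The part of endothelial cells in the level of Klf2 was not tested. Myc, the growth-promoting factor, ranged from 8.80 to 13 in AQP5+/+ and from 6.43 to 12.3 in AQP5-/-, and was the only tested immediate early member at its lowest in AQP5-/- replicate 1.

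The Gadd45 genes encode small stress proteins that bind kinases and act in growth arrest. Gadd45b stood at 1.09, 1.53 and 1.15 FPKM in AQP5+/+ and at 3.21, 2.35 and 2.5 in AQP5-/- replicates 1, 2 and 3. Gadd45g stood at 13.3, 16.5 and 17.4 in AQP5+/+ and at 41.0, 20.2 and 27.0 in AQP5-/-. In both genes all AQP5-/- libraries were above all AQP5+/+ libraries. Their log2 fold changes were 0.86 (SE 0.209) and 0.83 (SE 0.249), each short of the 2-fold limit on the log2(FPKM + 0.5) scale and with an adjusted p of 0.431 by limma. By edgeR on estimated fragments they were 1.21 and 1.05, past that limit, each with an adjusted p of 0.384. By limma without AQP5-/- replicate 1 they were 0.74 and 0.56, so that Gadd45b was the immediate early member whose fold change moved least among those with no overlap. Its estimated fragments were few, 20 to 34 in AQP5+/+ and 42 to 67 in AQP5-/- libraries.

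Ier3, a short-lived regulator of survival signalling (chr17:35821713-35822911), stood at 4.45, 8.39 and 6.61 FPKM in AQP5+/+ and at 33.1, 9.30 and 11.4 in AQP5-/- libraries. The genotypes did not overlap, though AQP5-/- replicate 2 (9.30) was close to AQP5+/+ replicate 2 (8.39). The log2 fold change was 1.22 (SE 0.449), with an adjusted p of 0.431 by limma, and it was 0.67 without AQP5-/- replicate 1. The call of Ier3 was lost there and when either AQP5+/+ replicate 1 or AQP5+/+ replicate 3 was left out (0.99 and 1.25). Ier2, a nuclear immediate early protein, ranged from 15.0 to 33.1 in AQP5+/+ and from 14.0 to 31.1 in AQP5-/-.

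The genes that switch the response off included the most abundant members. Btg2, an antiproliferative protein that promotes mRNA decay, stood at 50, 25.5 and 86.6 FPKM in AQP5+/+ and at 202, 28.2 and 31.3 in AQP5-/- replicates 1, 2 and 3. Dusp1, which dephosphorylates and so silences MAP kinases, stood at 53.1, 31.7 and 82.9 in AQP5+/+ and at 151, 47.0 and 58.6 in AQP5-/-. Both had AQP5-/- replicate 1 first and AQP5+/+ replicate 3 second, and the genotypes overlapped. The log2 fold change of Btg2 was 0.23 (SE 0.756) with all libraries and -0.68 without AQP5-/- replicate 1, and that of Dusp1 was 0.52 (SE 0.477) and 0.02. Zfp36, which marks mRNAs with AU-rich elements for decay, ranged from 21.1 to 27.7 in AQP5+/+ and stood at 91.0, 30.3 and 22.3 in AQP5-/-. Dusp2, a nuclear phosphatase of MAP kinases, was below the filter, from 0.126 to 0.804 FPKM, again with its highest value in AQP5-/- replicate 1.

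The secreted matricellular proteins Cyr61 and Ctgf, targets of serum and mechanical signals, did not separate the genotypes. Cyr61 ranged from 3.73 to 6.42 FPKM in AQP5+/+ and from 3.55 to 9.67 in AQP5-/-. Ctgf ranged from 7.12 to 10.9 and from 6.57 to 8.15. Their log2 fold changes were 0.33 and -0.21.

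Among the heat shock genes, Hspb8 was the member that separated the genotypes. Hspb8 (chr5:116408491-116422864), a small heat shock protein that works with Bag3 in chaperone-assisted autophagy, stood at 2.14, 4.34 and 3.34 FPKM in AQP5+/+ replicates 1, 2 and 3 and at 6.97, 9.30 and 8.13 in AQP5-/- replicates 1, 2 and 3. The lowest AQP5-/- library was above the highest AQP5+/+ library. The mean level of 3 libraries was 3.28 ± 1.10 (SD) for AQP5+/+, and that for AQP5-/- was 8.13 ± 1.16. The log2 fold change was 1.23 (SE 0.243), with an adjusted p of 0.431 by limma, 0.384 by edgeR on estimated fragments and 0.00542 by DESeq2. Without AQP5-/- replicate 1 its log2 fold change was 1.33. It was no longer called without AQP5+/+ replicate 1 (0.99), nor among the 4 libraries with Y-linked transcripts alone (0.83), a comparison chosen after seeing the data that leaves 1 AQP5+/+ library, whose spread is taken to be that of the others. The estimated fragments were 74, 146 and 88 in AQP5+/+ and 217, 252 and 274 in AQP5-/- libraries. Skeletal muscle, a tissue known for high Hspb8, was marked by a summed 63.0 FPKM of 9 genes in AQP5+/+ replicate 2 and by 1.27 to 7.09 in the others, and the part of muscle in these levels was not tested.

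The stress-inducible Hsp70 copies moved together and apart from the immediate early genes. Hspa1a stood at 2.64, 4.97 and 4.12 FPKM in AQP5+/+ and at 1.40, 9.56 and 2.48 in AQP5-/- replicates 1, 2 and 3. Hspa1b stood at 7.55, 10.3 and 12.1 in AQP5+/+ and at 4.34, 27.8 and 8.34 in AQP5-/-. Both were highest in AQP5-/- replicate 2 and lowest in AQP5-/- replicate 1, the library in which the immediate early genes were high. Their log2 fold changes were -0.16 (SE 0.562) and 0.05 (SE 0.566), and each changed sign under some alternatives. As reads of these copies cannot be well divided, their parallel levels do not count as separate observations.

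The other cytosolic chaperones of the set were not called. Hsph1, the Hsp110 nucleotide exchange factor of Hsp70, stood at 7.12, 12.8 and 10.5 FPKM in AQP5+/+ and at 9, 16.9 and 12.6 in AQP5-/- replicates 1, 2 and 3, with overlapping groups. Dnajb1, the Hsp40 partner of Hsp70, ranged from 3.38 to 4.34 and from 4.30 to 4.69. Hspb1, a small heat shock protein, ranged from 1.66 to 2.77 and from 1.89 to 4.39. Their log2 fold changes were 0.32, 0.20 and 0.23.

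The mitochondrial pair were the most abundant heat shock members and their levels ran side by side. Hspe1, the Hsp10 lid of the mitochondrial chaperonin, stood at 30.7, 32.5 and 43.4 FPKM in AQP5+/+ and at 41.0, 44.4 and 46.8 in AQP5-/- replicates 1, 2 and 3. Hspd1, the Hsp60 barrel itself, stood at 35.3, 30.6 and 40.3 in AQP5+/+ and at 38.9, 41.9 and 43.8 in AQP5-/-. In both genes the groups overlapped through AQP5+/+ replicate 3. The log2 fold changes were 0.32 (SE 0.159) and 0.24 (SE 0.140). By edgeR on estimated fragments they were 0.44 and 0.37, and neither was called. In AQP5-/- replicates 2 and 3, 4 of the 8 heat shock members (Dnajb1, Hspb8, Hspd1 and Hspe1) were above every AQP5+/+ library, as were 9.93% of all genes. Of the 8, 4 were highest in AQP5-/- replicate 2 (16.5% of all genes) and 4 in AQP5-/- replicate 3 (11.5%). Each of these counts includes either Hspa1a with Hspa1b or Hspe1 with Hspd1, so the genes counted are not all separate observations.

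**Figure D5:**
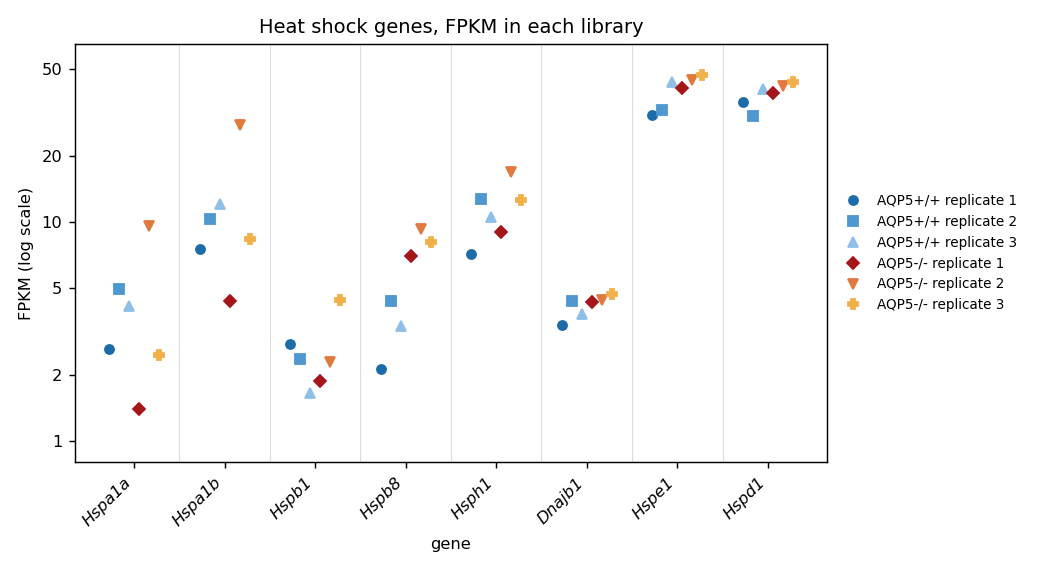
FPKM (log scale) of the 8 heat shock genes in each library, AQP5+/+ in blue and AQP5-/- in red to yellow. Hspb8 lies at 2.14 to 4.34 in AQP5+/+ and 6.97 to 9.30 in AQP5-/-, and Hspa1a and Hspa1b are highest in AQP5-/- replicate 2 and lowest in AQP5-/- replicate 1.

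Related genes outside the set were counted for comparison. Of 48 tested genes on a further list of immediate early genes, 3 were called higher and 0 lower by limma, with a median log2 fold change of 0.24, and 30 of them (62.5%) were highest in AQP5-/- replicate 1. Those called were Cxcl1, a neutrophil chemokine (log2 fold change 1.91), Bhlhe40, a clock-linked repressor (1.44), and Thbs1, a matricellular protein (1.09). Of these 3 genes, edgeR and DESeq2 called only Thbs1, and without AQP5-/- replicate 1 limma no longer called Cxcl1 (1.59). EdgeR called Ccl2 and Rgs2 besides Thbs1, and DESeq2 called Rgs2, Sik1 and Tnfaip3 besides it. Id2, an inhibitor of helix-loop-helix factors, was not called at 0.47 and had among the smallest p on this list. By DESeq2 3 of the 48, Id2, Rgs2 and Thbs1, had an adjusted p under 0.05 (0.00666 for Rgs2 and 0.0338 for Thbs1), among 1.27% of all genes. Like Gadd45b, and unlike Nr4a1, Thbs1 did not stand out in AQP5-/- replicate 1, with 1.92, 4.47 and 3.89 FPKM in AQP5+/+ and 8.16, 6.18 and 8.24 in AQP5-/- libraries. Of 24 kinases and factors that act on immediate early promoters, 0 were called by limma, edgeR or DESeq2, and at an unadjusted p under 0.05 by limma 1 was lower (Mapk8, the kinase of Jun, log2 fold change -0.35), with a median of -0.21 (-0.08 after centring).

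Other chaperones were not called. Of 36 tested entries for cytosolic chaperones and their partners, 0 were called by limma, edgeR or DESeq2, with a median of -0.06 (0.07 after centring). At an unadjusted p under 0.05 by limma 1 was higher and 3 were lower. The small heat shock proteins Hspb6 and Cryab were at -0.66 and -0.62, and Dnaja1, an Hsp40, at 0.34. By DESeq2 1 of the 36, Hsp90aa1, an inducible Hsp90, had an adjusted p of 0.0367 (log2 fold change 0.58, and 0.39 by limma). The 10 mitochondrial chaperones and proteases had 0 calls by these tools, with 0 at an unadjusted p under 0.05 by limma and a median of -0.15 (-0.01 after centring). The heat shock factors Hsf1 and Hsf2 were at -0.32 and -0.34, both not called.

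Genes of endoplasmic reticulum stress and of the clock, which also answer to the state of the tissue at collection, were set beside the members. Of 24 endoplasmic reticulum stress genes 0 were called by limma, edgeR or DESeq2, and at an unadjusted p under 0.05 by limma 2 were higher (Pdia4 at 0.45 and Sdf2l1 at 0.32) and 1 was lower (Xbp1 at -0.88). Of them 13 (54.2%) were highest in AQP5-/- replicate 2, as 16.5% of all genes were, and 1 in AQP5-/- replicate 1. Of 16 clock genes 0 were called by limma and by edgeR and 1, Nfil3, by DESeq2, and at an unadjusted p under 0.05 by limma 2 were lower (Tef at -0.55 and Per3 at -0.59). The clock list had a median of -0.34 (-0.20 after centring), and Dbp, an output gene of the clock, was at -0.69. Nfil3, which is itself inducible, stood at 3.54, 5.24 and 4.37 FPKM in AQP5+/+ and at 17.6, 5.22 and 4.02 in AQP5-/-, with the same high library as the Nr4a genes. The hour of tissue collection was not stated.

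Markers of other cells moved with some of these values. Macrophage genes, 9 in the table and all above 0, summed to 55.1, 60.5 and 84.4 FPKM in AQP5+/+ and to 79.5, 107 and 155 in AQP5-/- replicates 1, 2 and 3, and all 9 had a log2 fold change above 0. The sum of 6 genes of B and plasma cells was 4.55, 19.7 and 14.7 in AQP5+/+ and 31.2, 34.0 and 9.91 in AQP5-/-. That sum was highest in AQP5-/- replicate 2, and so were 3 of the 5 tested genes of this list, with 1 highest in AQP5-/- replicate 1. By median deviation on the log2 scale the list was highest in AQP5-/- replicate 1 (0.944, against 0.768 in AQP5-/- replicate 2), the library in which the immediate early genes were high. Fibroblast genes, 8 in the table, summed to 97.1, 81 and 54.8 FPKM in AQP5+/+ and to 83.1, 142 and 128 in AQP5-/- libraries, and all 7 tested had a log2 fold change above 0. Their sums were highest in AQP5-/- replicates 2 and 3, the libraries in which the heat shock members had their highest values. The 6 red blood cell genes summed to 147 FPKM in AQP5-/- replicate 2 and to between 31.9 and 92.1 elsewhere. The sum of 6 adipocyte genes was highest in AQP5-/- replicate 1, at 8.17 FPKM against 1.28 to 5.34 elsewhere, with Lep at 0 in all libraries. Fabp4 alone gave 7.3 of these 8.17 FPKM and was the only 1 of the 6 past the filter. The part of these cells in the levels of Fos, Ier3, Hspb8 and the other members was not tested.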

How the data were processed

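The authors deposited FPKM and estimated counts per protein-coding gene for each library, for which the submitters list Cuffdiff 2.2.1, Cufflinks, HISAT2 2.0.4 and the build mm10 with no role for each. The deposited counts of circRNA junction reads were made by the authors with cutadapt 1.9.3, STAR 2.5.1b and DCC, and 6 further columns on a log scale were not used. Labels and methods name different kits for library preparation, and no source says whether counting used strand. FPKM were compared with limma 3.58.1 in R 4.3.3 (lmFit and eBayes with trend, two-sided) on log2(FPKM + 0.5) over all genes with a mean of at least 0.5, 3 libraries against 3, with Benjamini-Hochberg adjustment over all genes tested. Calls used the form of threshold in the methods of the study. For edgeR 4.0.16 (quasi-likelihood test, TMM) and DESeq2 1.42.0, the deposited estimated counts, which are scaled per library, were divided by the library's step and rounded. Between 88.5% and 90.2% of values came out whole within 0.01. Depth ran from 11244579 to 13723134 estimated fragments, and the number of libraries, 3 a genotype, limits the precision. Groups came from the sample labels. The members and gene lists were chosen with earlier results of these data known. Values in every library are given for members that were called, had an unadjusted p under 0.05, did not overlap or were among the 4 most abundant of their group, and of other lists for called genes and up to 3 of smallest p. Further genes were chosen after their values were seen. Alternatives covered pseudocount, filter, scaling, test, variance model, weights, each library left out and the replicate block. The steps were tested on simulated data.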

Additional observations from a re-analysis of the deposited data

Results flagged for a closer look

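Of 2541 circRNAs with junction reads in the deposited table, 1 was hosted by a member: an intronic loop of Klf6 (chr13:5865345-5866594, + strand, mm10). It had 3 junction reads in AQP5-/- replicate 1 and 0 in every other library, so it was outside the 552 circRNAs seen in 3 or more libraries, and no test was made. AQP5-/- replicate 1 was also the library with the highest Klf6 mRNA, 45.8 FPKM. The libraries held between 2032 and 2953 junction reads.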

How the results depend on the processing

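The count of immediate early members called, all of them higher, was 2 by limma, where 136 of 11772 genes were called higher. It was 1 with no filter on low values (90 of 16449 genes). By edgeR it was 8 (144 of 11772 genes) and by DESeq2 8 (169 of 11772). It was 4 with the replicate block (157 of 11772) and 0 to 8 when single libraries were left out (43 to 282 genes). Chosen after seeing the data, it was 0 with the 4 libraries that hold Y-linked transcripts and 1 by edgeR without AQP5-/- replicate 1. Their median ran from 0.10 to 0.89 over single libraries left out and was 0.10 by edgeR without AQP5-/- replicate 1, where the heat shock median was 0.62. By edgeR on all libraries these medians were 1.05 and 0.42, against 0.69 and 0.23 by limma, and by limma without AQP5-/- replicate 1 the heat shock median was 0.40. With the Y-linked libraries alone it was 0.097. The heat shock count of 1 was 0 with the Y-linked libraries alone and ran from 0 to 1 over libraries left out. Over all genes 240 were called, 554 with array quality weights, 121 with the Y-linked libraries alone and 83 to 664 with single libraries left out, and centring moved the split from 136 higher and 104 lower to 172 and 58. The replicate numbers did not pair the libraries (correlations of deviations -0.139, -0.184 and -0.15), and a term for Y-linked transcripts was not run, since no AQP5-/- library lacks them. Of 33 members 19 kept their sign under all 19 alternatives. Signs changed by edgeR and DESeq2 for Jun (0.33 and 0.34), Egr2 (0.51 and 0.52) and Hspa1a (0.26 and 0.27), by array quality weights for Btg2 (-0.33) and Hspa1b (-0.063), with the Y-linked libraries alone for Jun (0.61), Jund (0.14), Egr1 (-0.19), Ier2 (0.34), Myc (0.053), Klf2 (0.20), Cyr61 (-0.11), Hspa1b (-0.023) and Hsph1 (-0.036), and by edgeR without AQP5-/- replicate 1 for Egr1 (-0.14), Atf3 (-0.38), Myc (0.029), Btg2 (-0.73) and Hspa1a (0.67). With single libraries left out, values ran from -0.97 to 0.26 for Jun, -0.12 to 0.84 for Egr1, -0.68 to 0.73 for Btg2, -0.0065 to 0.66 for Cyr61, -0.85 to 0.35 for Hspa1a, -0.66 to 0.62 for Hspa1b and -0.077 to 0.44 for Hspb1. The cause of these changes was not tested. With 3 libraries a genotype, limma told no member's fold change from 0 at an adjusted p under 0.05 (smallest 0.431), Nr4a1 and Btg2 included.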
